A study of Homo sapiens with 9 samples.

Results

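The genes described here are 47 lysosome and autophagy genes, taken by gene symbol from a table of 61209 genes counted in the human gastrointestinal stromal tumor (GIST) line GIST-T1, called T1. The rule used symbols only, but the genes, their roles and the other lists below were chosen with earlier results of these data known. All 47 symbols were in the table, and all 47 were among the 16976 genes with enough counts to be tested. The 9 RNA-seq libraries fell into 3 groups of 3: siERRα cells, transfected with siRNA against ESRRA, the gene of the orphan nuclear receptor ERRα; imatinib cells, which received non-target siRNA and 50 nM of imatinib, a drug that blocks KIT signaling; and siNC cells, which received non-target siRNA alone. Every group was therefore transfected, every group carried the line's activating KIT exon 11 deletion (del560-79), and every group was harvested at 48 h. The S numbers in the library labels run from 1 to 3 for siNC, 4 to 6 for siERRα and 16 to 18 for imatinib. Whether the imatinib libraries were handled apart from the others was not tested. All libraries come from 1 imatinib-sensitive line, and imatinib was given in growth medium. The cells were plated in triplicate, so the p-values below measure the spread between replicate wells of that line.

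The lysosome is the acidic compartment in which cells break down proteins, glycans and lipids. Its lumen holds soluble hydrolases, its membrane holds heavily glycosylated proteins, channels and transporters, and the V-ATPase proton pump keeps it acidic. Macroautophagy delivers cytoplasm to it: the ULK1 kinase and the BECN1 lipid kinase complex start a membrane sheet, the ATG12, ATG5 and ATG16L1 conjugation machinery attaches ATG8 proteins such as LC3B to it, and receptors such as p62 (SQSTM1) bind both cargo and ATG8. Many of these genes share an E-box-like promoter element, named CLEAR, which is bound by the transcription factors TFEB, TFE3 and MITF. When the nutrient-sensing kinase complex mTORC1 is active at the lysosome, it phosphorylates these factors and holds them in the cytoplasm, so their mRNA level is not a measure of their activity.

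The promoter element is shown first, because several of the genes with large and with small changes carry it. RefSeq promoters (GRCh38.p14, 250 bases before to 50 after the start site) were at hand for 35 of the 47 genes. The CLEAR core TCACGTGA, searched on both strands, was in 5 of these 35 (14.3%), against 1.84% of the 11277 promoters of tested genes and 1.04% of all 27305 promoters of the same length. The shorter E-box CACGTG, which lies inside the CLEAR core, was in 9 of the 35 (25.7%), against 9.91% of the promoters of tested genes and 7.43% of all promoters. The windows below hold the CLEAR cores of all 5 genes and, for CTSF, the gene with the largest change, its 2 E-boxes. Capitals mark the motif, and each window is written on the strand of its gene.
GAA, chr17:80101493-80101522, plus strand: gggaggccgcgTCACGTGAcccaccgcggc
GAA, chr17:80101538-80101567, plus strand: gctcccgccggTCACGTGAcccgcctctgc
CTSA, chr20:45891298-45891327, plus strand: ggcgccggagtTCACGTGActcgtacacat
LAMP1, chr13:113297199-113297228, plus strand: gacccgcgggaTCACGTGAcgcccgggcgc
LAMP1, chr13:113297226-113297255, plus strand: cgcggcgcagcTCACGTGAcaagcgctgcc
ATP6V0D1, chr16:67481199-67481228, minus strand: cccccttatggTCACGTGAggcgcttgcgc
MCOLN1, chr19:7522571-7522600, plus strand: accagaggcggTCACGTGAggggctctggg
MCOLN1, chr19:7522598-7522627, plus strand: gggctaccgggTCACGTGAccgaggcacag
CTSF, E-box, chr11:66568712-66568741, minus strand: acatataacaagCACGTGatagaggtcagt
CTSF, E-box, chr11:66568640-66568669, minus strand: ccctgcgcgcccCACGTGcctcctgtaaac
The 5 genes with the CLEAR core did not move as one. With imatinib the log2 fold change over siNC was 2.02 for GAA, 0.83 for CTSA and 0.65 for LAMP1, all 3 called higher, while ATP6V0D1 (0.09) and MCOLN1 (-0.22) were not called. By role, the CLEAR core was in 2 of 15 lumenal hydrolases and helpers with a promoter at hand, and in 3 of the 20 other genes. The E-box was in 5 of those 15 and in 4 of those 20. Besides CTSF, an E-box without the CLEAR core was in CTSD, CD63 and NEU1. With imatinib CTSD (0.94) was called higher, CD63 (-0.20) was called lower and NEU1 (-0.04) was not called. The 20 include 11 autophagy genes, none with either motif in this window, and 6 membrane and V-ATPase genes, 3 with the CLEAR core. TPP1 and GLB1, both called higher with imatinib, held neither motif, and no promoter was at hand for PSAP or HEXA. The ERR response element TCAAGGTCA, found in only 0.16% of the promoters of tested genes and 0.359% of all, is too rare for its count of 0 in 35 to tell anything. Its shorter core AAGGTCA, which lies inside the full element, was in 1 of the 35 (2.86%; SQSTM1), against 2.46% of the promoters of tested genes and 3.97% of all. A match or its absence describes letters in this window only.

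The libraries held 37527236 to 49363002 counts each. ESRRA was measured at 1.40, 0.757 and 1.34 CPM (counts scaled to the depth of each library, with TMM factors) in the siERRα libraries, 30.4, 32.0 and 35.6 in the imatinib libraries and 40.7, 44.7 and 40.9 in the siNC libraries, so the knockdown matched its labels. The GIST markers KIT, ANO1, ETV1 and CD34 were all present, with KIT at a group mean of 1304.5 to 1526.1 CPM. All 7 GIST markers listed (these with FOXF1, PRKCQ and PDGFRA) were tested. Against siNC, 4 were called higher and 2 lower with imatinib (85.7%, against 41.7% of all genes tested). With siERRα 4 were higher and 0 lower (57.1%, against 23.9% of all). They summed to 3934 to 4093 CPM in siERRα, 3769 to 3983 CPM in imatinib and 3645 to 3756 CPM in siNC libraries. Cathepsins and lysosomal membrane proteins are abundant in macrophages, but the 10 macrophage and leukocyte markers summed to 0.216 to 0.559 CPM over the 9 libraries (0.309 to 0.545 in siERRα, 0.216 to 0.410 in imatinib and 0.382 to 0.559 in siNC), with TYROBP at 0 in every library and none of the 10 abundant enough to be tested. The 5 epithelial markers also moved with imatinib. They summed to 280 to 303 CPM in siERRα, 193 to 223 CPM in imatinib and 302 to 315 CPM in siNC libraries, nearly all of it KRT18. Against siNC, 2 of the 3 tested were lower with imatinib (KRT18 -0.59, KRT8 -0.42) and 1 was higher. The higher gene was CDH1 (1.24), at under 1 CPM in the mean of each group. EPCAM and KRT19, at under 1 CPM in every library, were too low to be tested. The part of the GIST and epithelial markers in the results below was not tested. The second siERRα library and the first imatinib library differed most from the others of their groups, where the chi-square of their counts over genes, divided by its degrees of freedom, was 14.0 to 16.5 and 11.1 to 14.7, against 3.77 to 9.67 for the other pairs. Without the second siERRα library, 10 of the 47 genes were called higher and 7 lower for siERRα against siNC, and without the first imatinib library 22 were higher and 8 lower for imatinib against siNC. Since these are bulk samples, a change of level per cell cannot be told apart from a change in the share of cells that express a gene.

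Ordered per kilobase of the annotated principal transcript, the most abundant of the 47 mRNAs in siNC cells were CD63, a tetraspanin of late endosomes, SQSTM1, and PSAP, the precursor of the saposins that help hydrolases reach their lipid substrates. CD63 stood at 416 CPM per kb in siERRα cells, 368 in imatinib cells and 424 in siNC cells, at rank 1 in every group. PSAP ranked 4 of 47 in siERRα cells, 2 in imatinib cells and 3 in siNC cells, at 149, 364 and 158 CPM per kb. SQSTM1 stood at 209, 127 and 194 CPM per kb in the same order of groups, at rank 2 in siERRα and siNC cells and rank 6 in imatinib cells. CTSK and CTSZ, a pair of cathepsins, were at the bottom with under 1 CPM in every library. Together the 47 genes took 0.509 to 0.512% of all counts in siERRα libraries, 0.607 to 0.638% in imatinib libraries and 0.514 to 0.521% in siNC libraries. The imatinib range lay above both others, and the siERRα range lay just below that of siNC.

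Imatinib against siNC asks what the drug changes in the T1 cells. KIT activity was not measured in these libraries. Most lumenal hydrolases and their helpers rose, led by CTSF and GAA (4.26-fold and 4.07-fold), while SQSTM1, MAP1LC3B, TFE3 and MITF fell. Of the 47 genes, 22 were called higher and 10 lower at an adjusted p under 0.05, or 68.1%, while 41.7% of all 16976 genes tested were called, 21.4% higher and 20.3% lower. A call also depends on the count level of a gene, and the shares over all genes, here and below, were not matched for it. The median log2 fold change over the 47 was 0.13, against 0.00 over all genes tested, with a range of -0.61 to 2.09. When the log2 fold change also had to be 0.5 or more in size, 18 stayed higher (10.6% of all genes tested did so) and 1 stayed lower (7.02% of all). Every imatinib library lay above every siNC library for 24 of the 47 genes and below for 10. Such lack of overlap was common, at 4454 and 4374 of all 16976 genes tested. Of the 23 lumenal hydrolases and helpers in the set, 18 were called higher and 2 lower, with a median of 0.57. The 12 autophagy genes had 1 higher and 4 lower, with a median of -0.02.

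**Figure D1:**
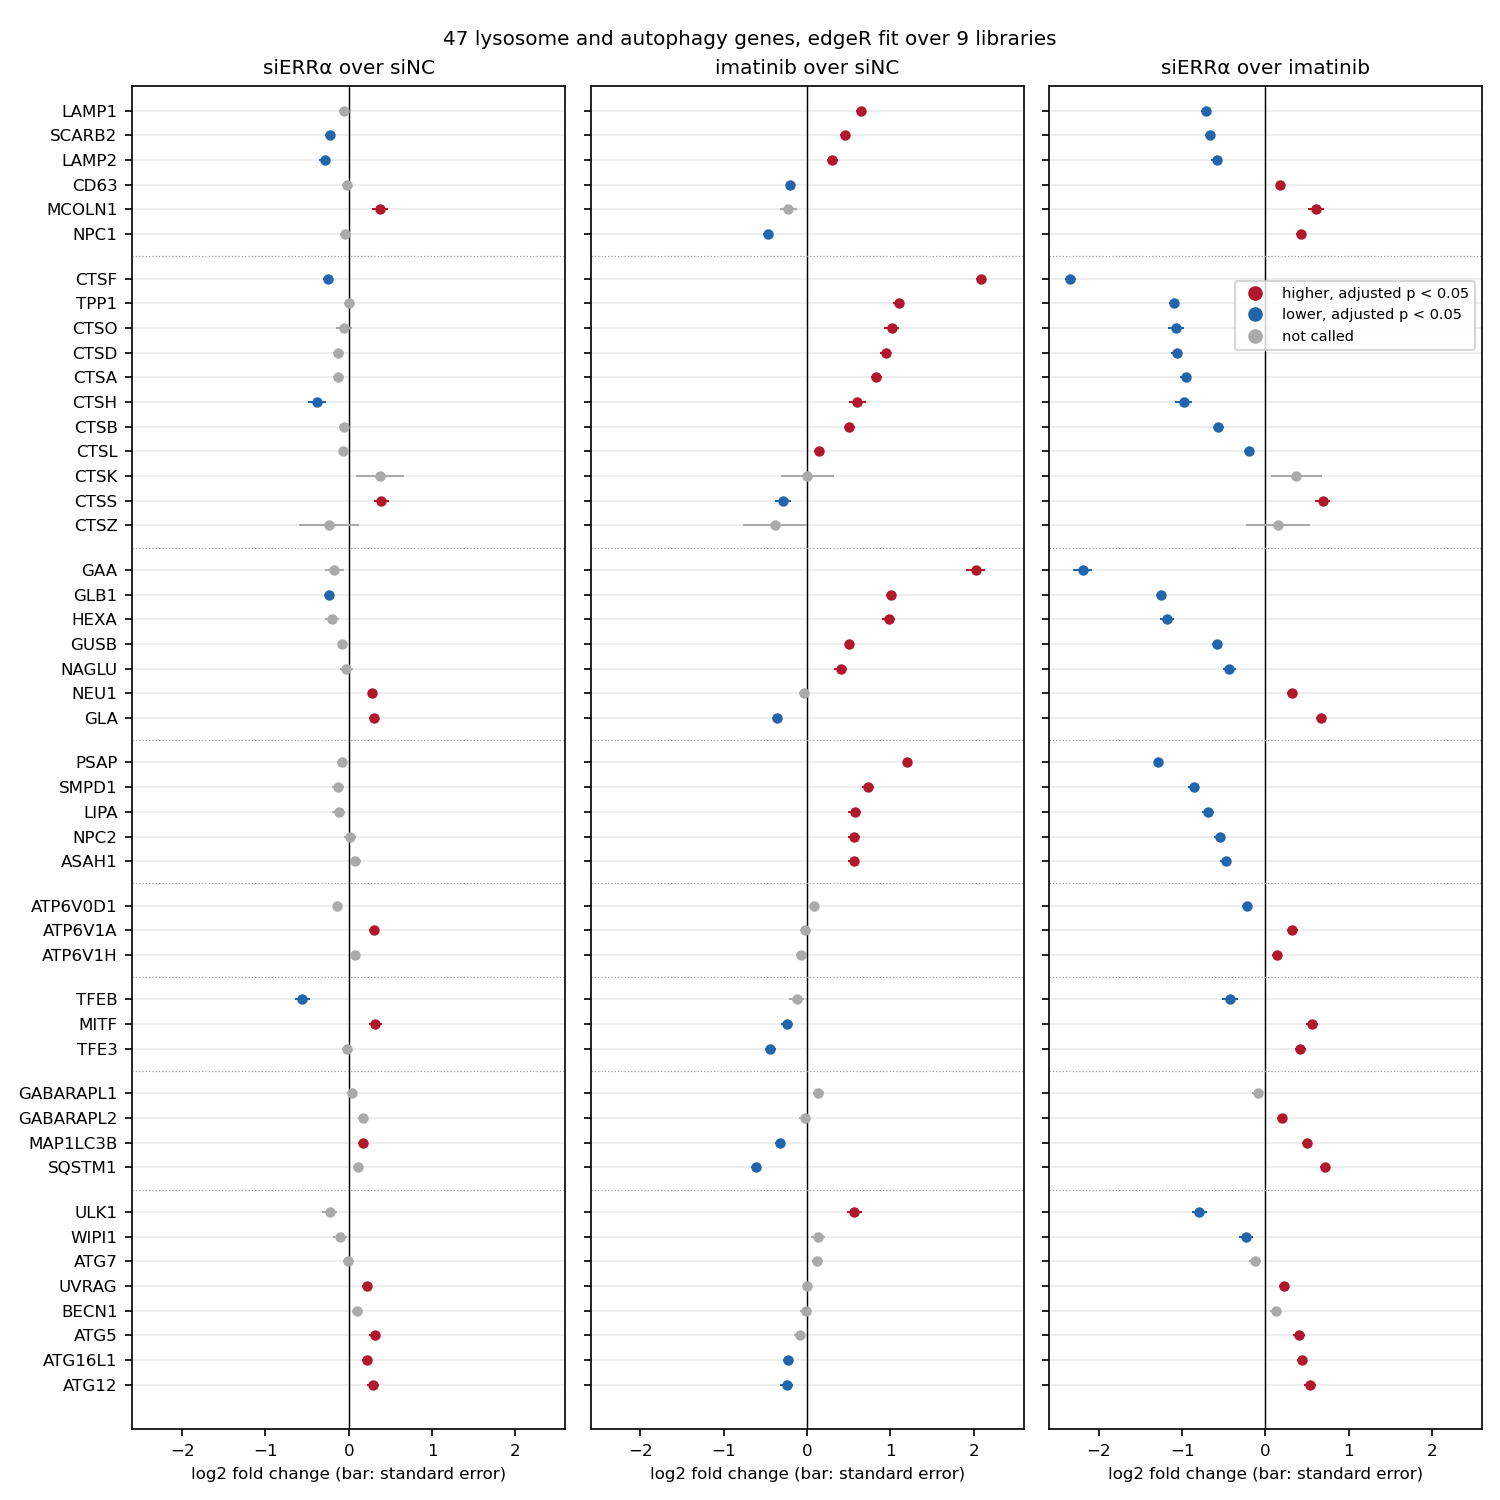
Log2 fold changes (points) with standard errors (bars) of the 47 genes in the 3 comparisons, one row per gene, grouped from top to bottom as membrane proteins, proteases, glycosidases, lipid-handling proteins, V-ATPase, TFEB family, ATG8 proteins with SQSTM1, and autophagy initiation and conjugation. Red is higher and blue lower at an adjusted p under 0.05; under imatinib the hydrolase rows reach 2.09 (CTSF), while under siERRα no gene goes beyond -0.55 (TFEB) or 0.39 (CTSS).

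Among the proteases, 8 of 11 rose with imatinib, 1 fell and 2 did not pass the test. CTSF, the cysteine protease cathepsin F, moved most: it stood at 147, 147 and 135 CPM in imatinib libraries and 33.0, 34.6 and 33.3 CPM in siNC libraries, a 4.26-fold difference (log2 2.09, SE 0.06, edgeR adjusted p = 2.06e-14). The groups were far from touching. TPP1, a serine peptidase whose loss causes a childhood form of neuronal ceroid lipofuscinosis, had 155, 151 and 136 CPM in imatinib libraries against 69.0, 66.5 and 70.7 CPM in siNC libraries (log2 1.10, SE 0.06, edgeR adjusted p = 1.76e-10). CTSD, the main lysosomal aspartic protease, had 153, 136 and 144 CPM in imatinib libraries against 69.2, 79.4 and 76.4 CPM in siNC libraries (log2 0.94, SE 0.07). For TPP1 and CTSD too, every imatinib library was above every siNC library. CTSO was lower in level but rose by a like amount, with 13.4, 15.5 and 13.6 CPM in imatinib libraries against 7.32, 6.95 and 6.73 CPM in siNC libraries (log2 1.01, SE 0.09). Further protease genes called higher were CTSA (0.83), which encodes the protective protein that stabilises beta-galactosidase and neuraminidase, CTSB (0.51), CTSL (0.14) and CTSH. CTSH had 11.0, 11.3 and 9.84 CPM in imatinib libraries against 6.47, 7.94 and 6.73 CPM in siNC libraries, with no overlap (log2 0.60, SE 0.10, edgeR adjusted p = 8.6e-05). The call of CTSL was lost in 9 of 16 alternative analyses, with edgeR adjusted p-values of 0.0501 to 0.201 there.

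CTSS, a cathepsin best known from antigen-presenting cells, was the protease that fell with imatinib. It had 6.18, 7.44 and 6.78 CPM in imatinib libraries against 8.21, 8.22 and 8.53 CPM in siNC libraries (log2 -0.29, SE 0.09, edgeR adjusted p = 0.0185). The groups did not overlap, but the adjusted p was 0.0836 without the first imatinib library and 0.0726 without the third siNC library. CTSK (0.00) and CTSZ (-0.39, SE 0.38) were too low for a firm value.

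Of the 7 glycosidases, 5 rose, 1 fell and 1 did not pass. GAA, the acid alpha-glucosidase that degrades lysosomal glycogen, had 93.2, 73.3 and 70.2 CPM in imatinib libraries against 16.98, 21.1 and 20.2 CPM in siNC libraries, a 4.07-fold difference (log2 2.02, SE 0.11, edgeR adjusted p = 2.98e-10). The first imatinib library was the highest, and the lowest of the 3 was still far above siNC. GLB1, the lysosomal beta-galactosidase, had 237, 232 and 213 CPM in imatinib libraries against 110, 117 and 111 CPM in siNC libraries (log2 1.01, SE 0.06, edgeR adjusted p = 1.8e-10). HEXA, the alpha subunit of beta-hexosaminidase, had 26.8, 29.6 and 26.7 CPM in imatinib libraries against 13.1, 14.8 and 14.3 CPM in siNC libraries (log2 0.98, SE 0.08). For both genes the imatinib libraries lay far above those of siNC. GUSB, the beta-glucuronidase, rose by 0.51 and NAGLU, an exoglycosidase of heparan sulfate breakdown, by 0.40 on the log2 scale.

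GLA, the alpha-galactosidase A that is lost in Fabry disease, moved the other way. It had 60.6, 64.6 and 63.0 CPM in imatinib libraries against 84.9, 80.7 and 76.1 CPM in siNC libraries (log2 -0.36, SE 0.06, edgeR adjusted p = 7.86e-05). All 3 imatinib libraries were below all 3 siNC libraries. NEU1, the lysosomal sialidase, was not called (-0.04, SE 0.05).

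All 5 lipid-handling proteins of the lumen rose with imatinib. PSAP had 1033, 1042 and 927 CPM in imatinib libraries against 418, 442 and 443 CPM in siNC libraries, a 2.30-fold difference (log2 1.20, SE 0.06, edgeR adjusted p = 1.45e-11). It was the most abundant of the 47 by CPM in imatinib cells. The other 4 rose less: SMPD1, the acid sphingomyelinase, by 0.73, LIPA, the acid lipase, by 0.57, NPC2, a soluble cholesterol carrier, by 0.56 and ASAH1, the acid ceramidase, by 0.56 on the log2 scale. Their summed level averaged 1385 ± 81.6 CPM in imatinib libraries and 681 ± 19.8 CPM in siNC libraries (SD, n = 3 each), with PSAP making up most of it.

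**Figure D2:**
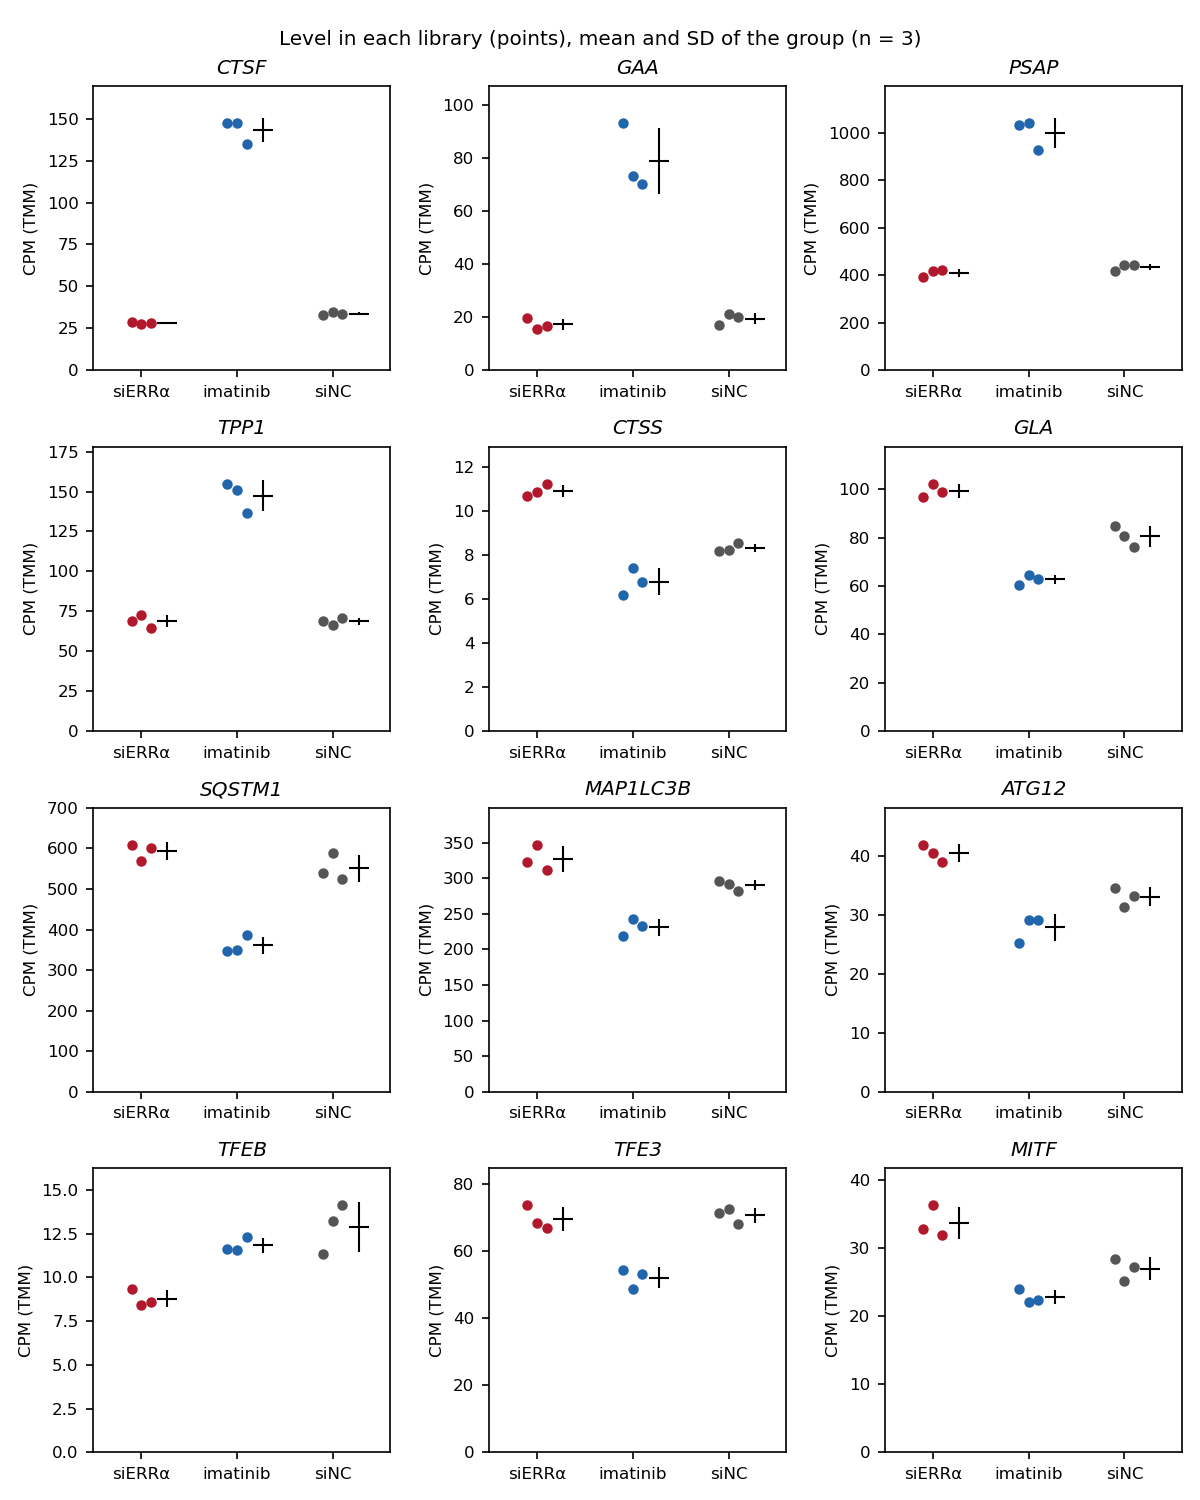
TMM-scaled CPM of 12 genes in every library (points; siERRα, imatinib and siNC from left to right), with the mean and SD of each group beside them and each axis starting at 0. CTSF, GAA, PSAP and TPP1 are high only in the imatinib libraries, SQSTM1 and TFE3 are low there, TFEB is lowest in the siERRα libraries, and CTSS, GLA, MAP1LC3B, ATG12 and MITF run down in the order siERRα, siNC, imatinib.

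The membrane proteins moved in both directions. LAMP1, LAMP2 and SCARB2 rose, CD63 and NPC1 fell, and the calcium channel MCOLN1 was not called (edgeR adjusted p = 0.0759, though 0.00881 without the first siNC library and 0.0419 without the filter on low counts). LAMP1, a major glycoprotein of the membrane, had 545, 503 and 466 CPM in imatinib libraries against 311, 320 and 333 CPM in siNC libraries (log2 0.65, SE 0.06). SCARB2, the receptor that carries glucocerebrosidase to the lysosome, had 386, 414 and 365 CPM in imatinib libraries against 289, 275 and 289 CPM in siNC libraries (log2 0.45, SE 0.06). LAMP2 had 233, 268 and 233 CPM in imatinib libraries against 205, 187 and 204 CPM in siNC libraries (log2 0.30, SE 0.07, edgeR adjusted p = 0.00132). None of the 3 overlapped with siNC. NPC1, the membrane partner of NPC2 in cholesterol export, had 63.9, 56.8 and 62.2 CPM in imatinib libraries against 82.4, 85.2 and 86.2 CPM in siNC libraries (log2 -0.47, SE 0.06, edgeR adjusted p = 6.03e-06). The 2 Niemann-Pick type C genes thus moved in opposite directions, NPC2 up and NPC1 down. The V-ATPase subunits ATP6V0D1, ATP6V1A and ATP6V1H gave -0.07 to 0.09, with none called.

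The transcription factors of the family were not higher in imatinib cells. TFE3 had 54.3, 48.6 and 53.2 CPM in imatinib libraries against 71.3, 72.4 and 68.1 CPM in siNC libraries (log2 -0.44, SE 0.06, edgeR adjusted p = 1.85e-05). MITF, known best as the melanocyte regulator, had 24.0, 22.2 and 22.4 CPM in imatinib libraries against 28.5, 25.2 and 27.3 CPM in siNC libraries (log2 -0.24, SE 0.08, edgeR adjusted p = 0.0151). Both fell without overlap, although the adjusted p of MITF was 0.081 without the first siNC library. TFEB, with 11.6, 11.5 and 12.3 CPM in imatinib libraries against 11.3, 13.2 and 14.1 CPM in siNC libraries, overlapped and was not called (log2 -0.13, SE 0.09, edgeR adjusted p = 0.299). Of 5 melanocyte markers only PMEL had enough counts to be tested, and TYR was at 0 in every library; the 5 summed to 1.55 to 1.72 CPM in siERRα, 3.25 to 4.12 CPM in imatinib and 2.13 to 2.30 CPM in siNC libraries.

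SQSTM1, the p62 receptor that is itself degraded by autophagy, had the largest fall of the set. It stood at 346, 350 and 385 CPM in imatinib libraries against 539, 589 and 524 CPM in siNC libraries, a ratio of 0.655 (log2 -0.61, SE 0.06, edgeR adjusted p = 1.38e-07). MAP1LC3B, which encodes LC3B, had 219, 243 and 233 CPM in imatinib libraries against 296, 293 and 282 CPM in siNC libraries (log2 -0.33, SE 0.06, edgeR adjusted p = 0.00013). Every imatinib library was below every siNC library for both genes. The related ATG8 genes GABARAPL1 (0.13) and GABARAPL2 (-0.03) were not called.

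Within initiation and conjugation, ULK1 rose and ATG12 and ATG16L1 fell. ULK1, the kinase at the top of the pathway, had 44.2, 35.0 and 37.8 CPM in imatinib libraries against 24.3, 28.3 and 26.4 CPM in siNC libraries (log2 0.57, SE 0.09, edgeR adjusted p = 3.91e-05). ATG16L1 had 49.0, 49.3 and 48.2 CPM in imatinib libraries against 57.8, 57.9 and 55.7 CPM in siNC libraries (log2 -0.23, SE 0.06, edgeR adjusted p = 0.00377). ATG12, the ubiquitin-like protein joined to ATG5, had 25.3, 29.3 and 29.3 CPM in imatinib libraries against 34.7, 31.5 and 33.3 CPM in siNC libraries (log2 -0.25, SE 0.07, edgeR adjusted p = 0.0106). Its call was lost without the first imatinib library (adjusted p = 0.0594) or the first siNC library (0.0562). BECN1, UVRAG, WIPI1, ATG5 and ATG7 were not called, with log2 values of -0.09 to 0.14.

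**Figure D3:**
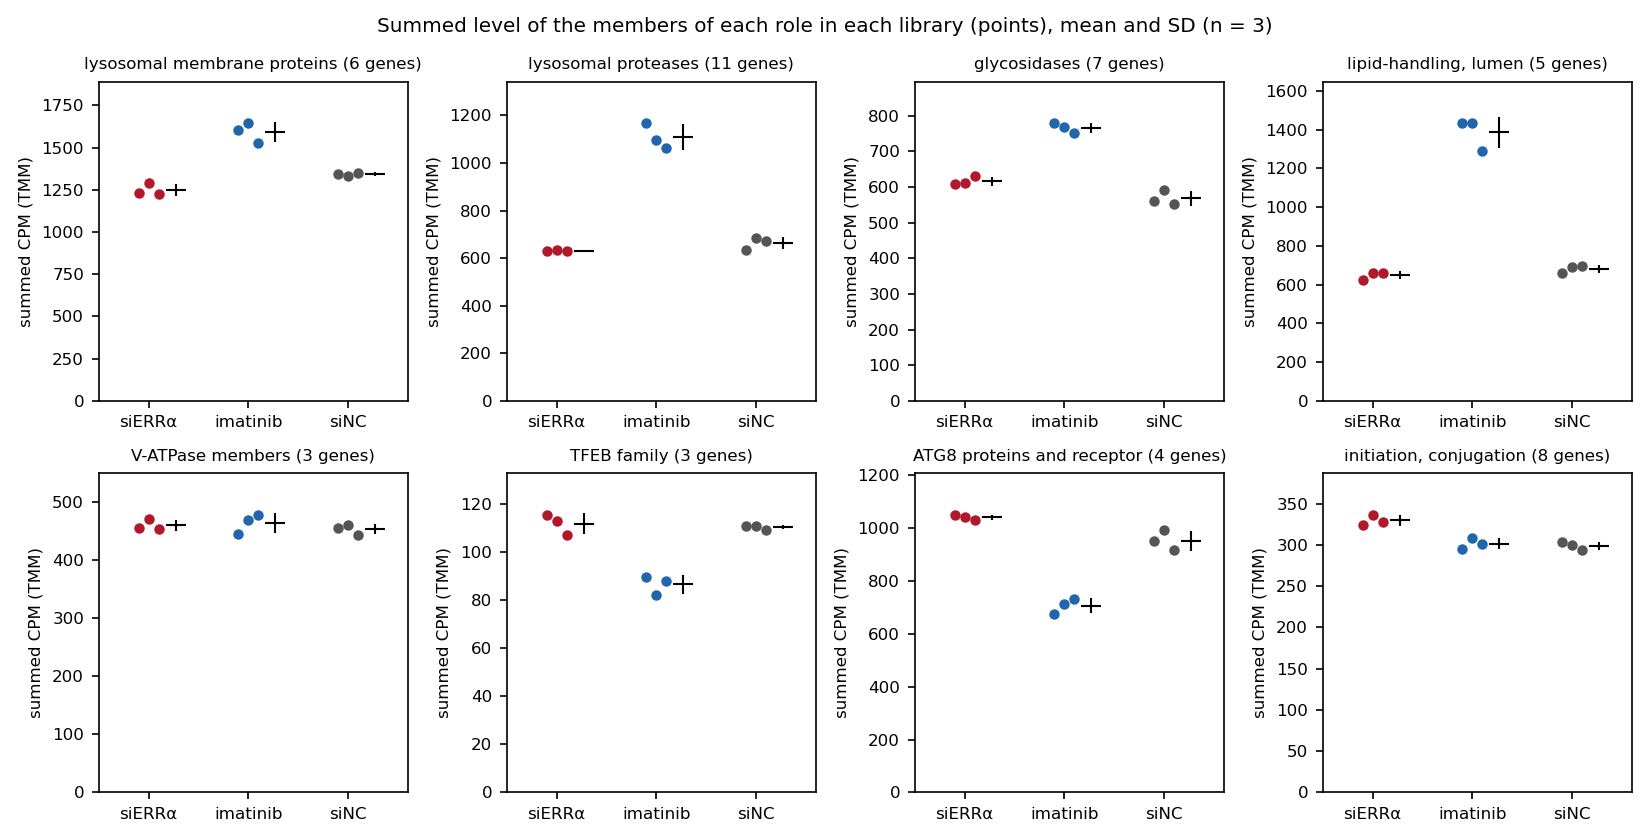
Summed TMM-scaled CPM of the genes of each role in every library (points), with the mean and SD (n = 3), each axis starting at 0. The imatinib libraries lie above siNC for membrane proteins, proteases, glycosidases and lipid-handling proteins, below siNC for the TFEB family and the ATG8 group, and on a level with siNC for the V-ATPase genes; abundant genes weigh most in each sum.

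Summed by role, the proteases averaged 1109 ± 53.9 CPM in imatinib libraries and 664 ± 26.3 CPM in siNC libraries, a ratio of 1.67. The glycosidases averaged 766 ± 14.2 CPM in imatinib libraries and 568 ± 21.4 CPM in siNC libraries, a ratio of 1.35. The ATG8 proteins with SQSTM1 went the other way, at 706 ± 27.2 CPM in imatinib libraries and 953 ± 37.7 CPM in siNC libraries, a ratio of 0.741 (SD, n = 3 each).

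Outside the 47, 152 other genes of the compartment and its control were listed, of which 148 were tested, and their counts stand beside the 41.7% of all genes tested that were called with imatinib. These lists too were chosen with earlier results of these data known, so their shares are a description and not a test. Of 28 other lysosomal hydrolases, 26 were called higher and 0 lower with imatinib (92.9%), with a median of 0.50; ARSB and IDS, a pair of sulfatases, were not called. The 4 with the smallest p were PLD3 (1.37), a lysosomal nuclease, SIAE (1.40), a sialic acid esterase, the carboxypeptidase gene SCPEP1 (0.93) and CTSV (1.20), the close relative of cathepsin L. Of 31 other membrane and trafficking genes, 12 were higher and 4 lower (51.6%, near the share over all genes). Progranulin (GRN, 1.52), which is cleaved into granulins in the lysosome, and GNPTG (0.96), a subunit of the enzyme that makes the mannose 6-phosphate tag, were higher, as was SUMF1 (0.55), which activates sulfatases, while OSTM1 (-0.64), a chloride transporter subunit, was lower. The 16 other V-ATPase subunits had 5 higher and 6 lower (68.8%), among them ATP6AP2 (0.64), ATP6V0E2 (0.50), ATP6V0B (-0.47) and ATP6V0A1 (-0.36).

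The 42 other autophagy genes had 13 higher and 8 lower with imatinib, with a median of 0.04, and their called share of 50% was near the 41.7% over all genes. MAP1LC3A (1.01), an LC3 paralog, was higher where MAP1LC3B was lower. WIPI2 (0.35) and TECPR1 (0.38), which act in membrane growth and in lysosome contact, were higher. VMP1 (-0.35), a membrane protein that acts in autophagosome formation, was lower. Of 31 genes of mTORC1 and nutrient sensing, 8 were higher and 10 lower (58.1%). DEPTOR (1.72), an mTOR inhibitor, and the transcription factors FOXO3 (0.59) and FOXO1 (0.68) were higher, and FLCN (-0.54), the folliculin gene of the Rag GTPase pathway, was lower.

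**Figure D4:**
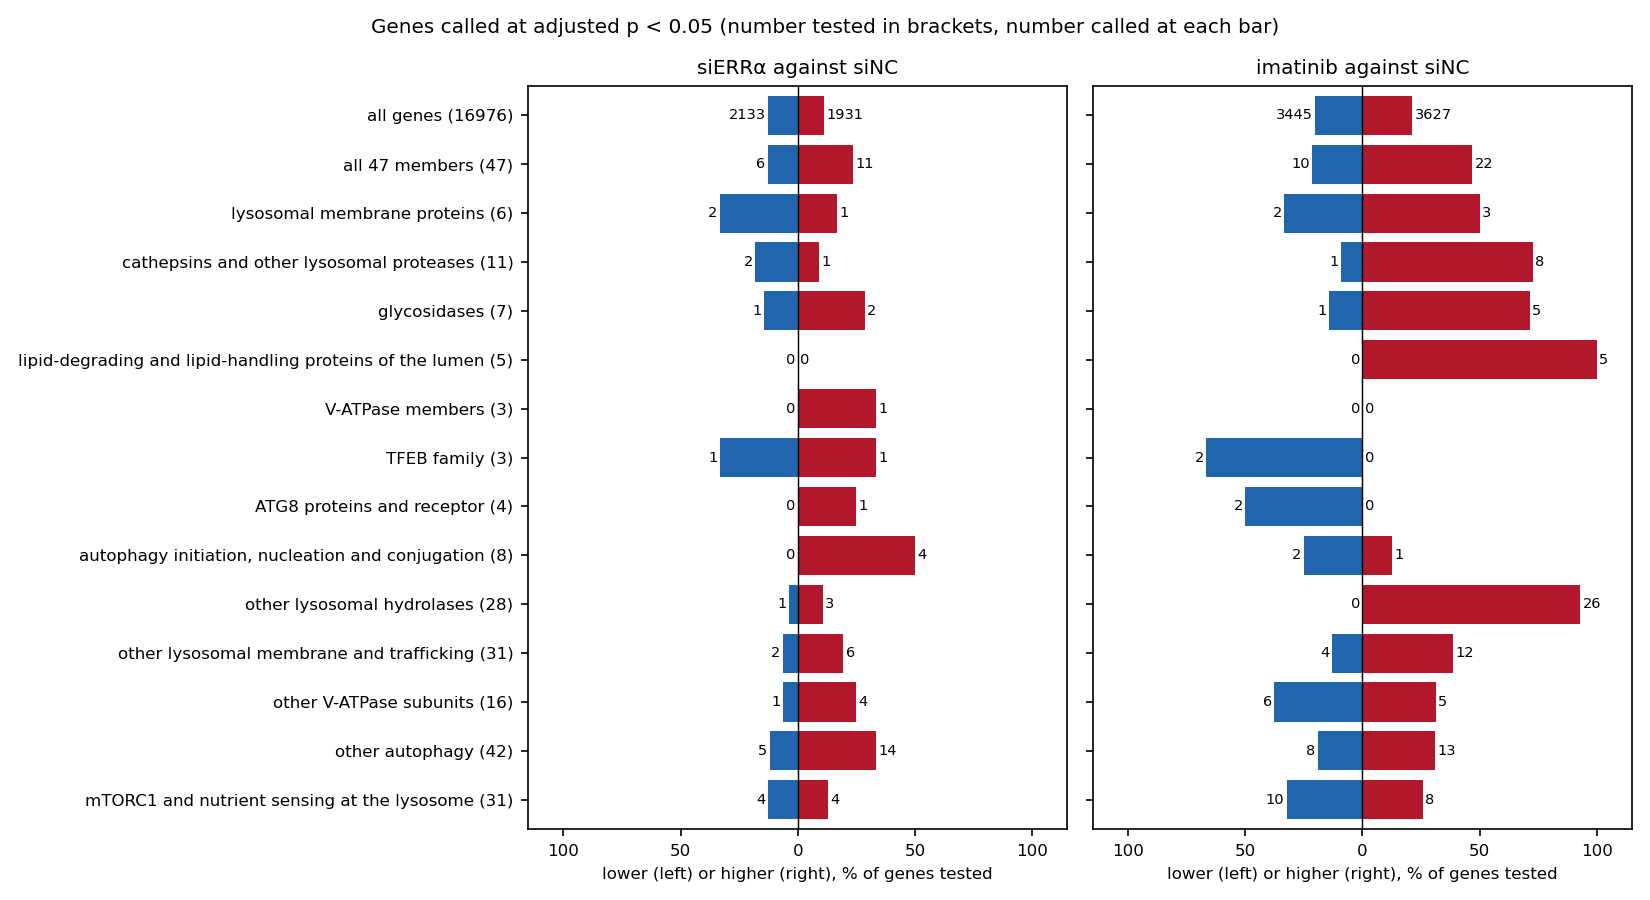
Share of genes called higher (right, red) and lower (left, blue) at an adjusted p under 0.05 in each list, with the number called at each bar and the number tested in brackets, for siERRα against siNC (left panel) and imatinib against siNC (right panel). With imatinib, 26 of the 28 other lysosomal hydrolases and all 5 lipid-handling genes were called higher, while with siERRα 4 of those 28 were called; of the autophagy genes among the 47, the 5 called higher with siERRα become 2 without the third siNC library.

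The siERRα against siNC comparison asks what the siRNA against ESRRA changes in the same cells. Whether it was a single sequence or a pool is not given in the sources used here. Which changes came from loss of ERRα and which from other effects of the siRNA was not tested. The changes were small: 11 of the 47 genes were called higher and 6 lower, or 36.2%, while 23.9% of all genes tested were called, 11.4% higher and 12.6% lower, again not matched for count level. The median was -0.03, against 0.01 over all genes tested, and the values ran between -0.55 and 0.39. Past an absolute log2 fold change of 0.5 there were 0 genes higher (1.98% of all genes tested) and 1 lower (5.28% of all), TFEB. Every siERRα library lay above every siNC library for 13 of the 47 genes and below for 9. The same held for 3276 and 3278 of all 16976 genes tested. The 12 autophagy genes had 5 higher and 0 lower, with a median of 0.14, but only 2 higher (ATG5 and ATG12) without the third siNC library. Over the alternative analyses 2 to 6 were higher and 0 to 1 lower. The 23 lumenal hydrolases and helpers had 3 higher and 3 lower, with a median of -0.07.

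TFEB was the gene with the largest change. It had 9.33, 8.39 and 8.60 CPM in siERRα libraries against 11.3, 13.2 and 14.1 CPM in siNC libraries, a ratio of 0.681 (log2 -0.55, SE 0.09, edgeR adjusted p = 0.000222). All siERRα libraries lay below all siNC libraries. MITF went up, with 32.8, 36.3 and 31.9 CPM in siERRα libraries against 28.5, 25.2 and 27.3 CPM in siNC libraries (log2 0.32, SE 0.07, edgeR adjusted p = 0.00325). TFE3, with 73.5, 68.2 and 66.7 CPM in siERRα libraries against 71.3, 72.4 and 68.1 CPM in siNC libraries, overlapped and was not called (log2 -0.02, SE 0.06). The 3 factors thus gave a fall, a rise and a value near 0. TFE3, the most abundant of them, made up most of their summed level, which averaged 112 ± 4.31 CPM in siERRα libraries and 110 ± 0.847 CPM in siNC libraries (SD, n = 3 each).

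Among autophagy genes, ATG5, ATG12, ATG16L1, UVRAG and MAP1LC3B rose. ATG5 had 40.6, 43.4 and 41.0 CPM in siERRα libraries against 35.4, 32.2 and 32.9 CPM in siNC libraries (log2 0.31, SE 0.07, edgeR adjusted p = 0.00199). ATG12 had 42.0, 40.5 and 39.0 CPM in siERRα libraries against 34.7, 31.5 and 33.3 CPM in siNC libraries (log2 0.29, SE 0.07, edgeR adjusted p = 0.00576). ATG16L1, which positions the ATG12 and ATG5 conjugate on the membrane, had 64.4, 68.0 and 66.5 CPM in siERRα libraries against 57.8, 57.9 and 55.7 CPM in siNC libraries (log2 0.21, SE 0.06). The 3 proteins form one complex. None of the 3 mRNAs overlapped with siNC, as was so on the higher side for 3276 of all 16976 genes tested. UVRAG, a partner of the BECN1 complex, gave 0.22 (SE 0.06), and without the third siNC library both ATG16L1 and UVRAG lost their calls (adjusted p = 0.0746 and 0.0734). MAP1LC3B had 323, 347 and 312 CPM in siERRα libraries against 296, 293 and 282 CPM in siNC libraries (log2 0.17, SE 0.06, edgeR adjusted p = 0.0328), a call lost on leaving out the first or second siERRα library or any siNC library, with p-values of 0.0602 to 0.173. SQSTM1 was not called, at 610, 568 and 601 CPM in siERRα libraries against 539, 589 and 524 CPM in siNC libraries (log2 0.11, SE 0.06), nor was ULK1 (-0.23, SE 0.09, edgeR adjusted p = 0.076). ULK1 was called lower in 3 of 16 alternative analyses (edgeR adjusted p = 0.0434 to 0.0472). GABARAPL2 (0.17, edgeR adjusted p = 0.0564) was not called, but was higher in 3 of 16, among them the DESeq2 Wald test (adjusted p = 0.0404).

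The lysosomal genes that rose with siERRα encode a channel, a pump subunit, a protease and a pair of glycosidases. MCOLN1, the calcium channel of the lysosomal membrane, had 25.7, 23.7 and 25.4 CPM in siERRα libraries against 16.1, 21.8 and 19.7 CPM in siNC libraries (log2 0.38, SE 0.10, edgeR adjusted p = 0.00639), and the adjusted p was 0.0518 without the first siNC library, the lowest of the 3. ATP6V1A, the catalytic subunit of the proton pump, had 128, 148 and 127 CPM in siERRα libraries against 113, 104 and 110 CPM in siNC libraries (log2 0.30, SE 0.06, edgeR adjusted p = 0.00191). CTSS had 10.7, 10.9 and 11.2 CPM in siERRα libraries against 8.21, 8.22 and 8.53 CPM in siNC libraries (log2 0.39, SE 0.09, edgeR adjusted p = 0.00328). These 3 genes were higher in every siERRα library than in any siNC library. GLA had 96.8, 102 and 99.0 CPM in siERRα libraries against 84.9, 80.7 and 76.1 CPM in siNC libraries (log2 0.30, SE 0.06, edgeR adjusted p = 0.000857). NEU1 rose as well, by 0.28 on the log2 scale (SE 0.05, edgeR adjusted p = 0.000783).

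Besides TFEB, the genes that fell were LAMP2, SCARB2, CTSF, CTSH and GLB1. CTSH, an aminopeptidase of the cathepsin family, had 5.47, 5.43 and 5.30 CPM in siERRα libraries against 6.47, 7.94 and 6.73 CPM in siNC libraries (log2 -0.38, SE 0.11, edgeR adjusted p = 0.0122), and its adjusted p was 0.0676 without the second siNC library, the highest. LAMP2 had 155, 177 and 158 CPM in siERRα libraries against 205, 187 and 204 CPM in siNC libraries (log2 -0.29, SE 0.07, edgeR adjusted p = 0.00399). CTSF had 28.9, 27.8 and 28.0 CPM in siERRα libraries against 33.0, 34.6 and 33.3 CPM in siNC libraries (log2 -0.25, SE 0.06, edgeR adjusted p = 0.00539). The groups did not overlap for any of these genes. GLB1 had 90.4, 97.9 and 98.0 CPM in siERRα libraries against 110, 117 and 111 CPM in siNC libraries (log2 -0.24, SE 0.06, edgeR adjusted p = 0.00553). SCARB2 had 233, 261 and 238 CPM in siERRα libraries against 289, 275 and 289 CPM in siNC libraries (log2 -0.22, SE 0.06, edgeR adjusted p = 0.0104), a call lost without the first siERRα library (0.0595). The 5 lipid-handling genes of the lumen were not called, with log2 values of -0.13 to 0.08.

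The letters ATGTTCT, chosen with the knockdown results known, were in the 3′ untranslated region of 37.2% of 1968 genes lower in siERRα cells, against 19.0% of 12737 genes tested, but the regions of the lower genes were also longer (median 1752 against 1396 bases), and the shares were not adjusted for length. Among the genes described here they were in 7 of 46 with an annotated region, in 2 of the 6 that fell (LAMP2 and SCARB2) and in 1 of 10 that rose (NEU1). TFEB, CTSF, CTSH and GLB1 held none. Whether the letters had any part in the falls was not tested.

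In the wider lists the shares called with siERRα stand beside 23.9% of all genes tested, and no test compared the lists. Of the 28 other lysosomal hydrolases, 3 were higher and 1 lower (14.3%): CTSC (0.43), the cathepsin that activates granule serine proteases, GM2A (0.28), the ganglioside activator, and HGSNAT (0.19), an acetyltransferase of heparan sulfate breakdown, against FUCA1 (-0.29), a fucosidase. Of the 42 other autophagy genes, 14 were higher and 5 lower (45.2%), with TP53INP2 (0.67) and TECPR1 (0.43) higher and WIPI2 (-0.42) and ATG4A (-0.45), a protease that processes ATG8 proteins, lower. The 31 membrane and trafficking genes had 6 higher and 2 lower (25.8%, near the share over all genes), among them the endolysosomal channel gene TPCN1 (0.40), SIDT2 (0.35), RILP (0.47) and the HOPS complex gene VPS41 (-0.47). The 16 V-ATPase subunits had 4 higher and 1 lower (31.2%), with ATP6V0A1 (0.24), ATP6V1B2 (0.23) and ATP6V0B (0.24) higher and ATP6V0E2 (-0.31) lower. Of the 31 mTORC1 genes 4 were higher and 4 lower (25.8%), with SESN3 (0.81), a sestrin, and FOXO3 (0.32) higher and FOXO1 (-0.46) and TSC1 (-0.32) lower.

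The direct comparison, siERRα against imatinib, sets knockdown without drug beside drug without knockdown. In it 17 of the 47 genes were higher in siERRα cells and 25 lower, or 89.4%, while 52.2% of all genes tested were called, 25.6% higher and 26.6% lower. The median was -0.22, against -0.00 over all genes tested, and 7 genes were higher and 19 lower past an absolute log2 fold change of 0.5, against 10.6% and 15.7% of all genes tested. Of the 23 lumenal hydrolases and helpers, 18 were lower and 3 higher in siERRα cells, with a median of -0.69. CTSF (-2.34, SE 0.06), GAA (-2.19, SE 0.11), PSAP (-1.29, SE 0.06) and GLB1 (-1.25, SE 0.06) differed most. Of the 12 autophagy genes 7 were higher and 2 lower, led by SQSTM1 (0.72, SE 0.06) and ATG12 (0.54, SE 0.07) on the higher side and ULK1 (-0.79, SE 0.09) and WIPI1 (-0.24, SE 0.08) on the lower side. TFEB was lower in siERRα cells than in imatinib cells (-0.43, SE 0.10), while MITF (0.56, SE 0.07) and TFE3 (0.42, SE 0.06) were higher.

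The 2 comparisons with siNC share their siNC libraries, so a high or low siNC library moves both. The genes called in both are given side by side, siERRα first and imatinib second, each as a log2 fold change over siNC. LAMP2 had -0.29 and 0.30, SCARB2 -0.22 and 0.45, CTSF -0.25 and 2.09, CTSH -0.38 and 0.60, and GLB1 -0.24 and 1.01. CTSS had 0.39 and -0.29, GLA 0.30 and -0.36, MITF 0.32 and -0.24, MAP1LC3B 0.17 and -0.33, ATG12 0.29 and -0.25, and ATG16L1 0.21 and -0.23. The siNC level of each of these genes thus lay between the levels of the treated groups, which fixes its direction in the direct comparison. There the log2 difference of siERRα over imatinib was -0.59 (SE 0.07) for LAMP2, -0.67 (SE 0.06) for SCARB2, -0.98 (SE 0.10) for CTSH, 0.69 (SE 0.09) for CTSS, 0.66 (SE 0.06) for GLA, 0.50 (SE 0.06) for MAP1LC3B and 0.44 (SE 0.06) for ATG16L1.

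Some calls of the direct comparison were close to the threshold. ATP6V1H (0.14) lost its call in 13 of 16 alternative analyses, with adjusted p-values of 0.0519 to 0.139. GABARAPL2 (0.20) lost its call in 2 and WIPI1 (-0.24) in 4.

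Mitochondrial counts were higher with imatinib, and 3 of 6 proliferation genes (50%, near the 41.7% over all genes) were called, 2 lower and 1 higher, with a median of -0.07. Mitochondrially encoded genes took 0.943 to 1.03% of counts in siERRα libraries, 1.48 to 1.54% in imatinib libraries and 0.846 to 0.989% in siNC libraries. Of the proliferation genes, CCNB1 (-0.98) and PLK1 (-0.81) were lower with imatinib than in siNC, while CDK1 (0.34) was higher and MKI67 was not called (0.02), with 74.1, 33.1 and 46.9 CPM in imatinib libraries against 47.4, 45.7 and 58.3 CPM in siNC libraries, the first imatinib library being the highest. Their part in the values above was not tested.

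Some of these genes share exon sequence with others, and the strand setting of the counting is not given in the sources used here. Exons of other annotated genes covered 62.1% of the principal CTSD transcript, 55.7% of SQSTM1 (by MRNIP, on the opposite strand), 37.7% of BECN1 and 29.9% of ATG7. The share was 28.3% for WIPI1, 24.1% for CTSA, 22.1% for TPP1 and 21.7% for HEXA, and at most 15.3% for the rest. For CTSD, TPP1 and HEXA the overlap included a gene on the same strand, which no strand setting would separate. The transcripts of CTSF, GAA, PSAP, GLA and TFEB had no such overlap. Near-identical copies can also divide reads: MAP1LC3B2 averaged 1.38, 1.21 and 1.77 CPM and the cathepsin L pseudogene CTSLP8 13.3, 13.0 and 16.8 CPM in siERRα, imatinib and siNC cells. CTSLP8 was lower in imatinib than in siNC cells (-0.38), opposite to CTSL, so the values of CTSL are uncertain.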

How the data were processed

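Poly(A) RNA of 9 GIST-T1 libraries was read in pairs of 100 bases. Alignment to GRCh38 by the authors used STAR 2.7.3a, and featureCounts 2.0.1 gave the gene counts (versions per the submitters' processing notes). The deposited values are raw counts per gene for each library, with no normalization. No annotation release or strand setting was given in the sources used here.

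All 9 libraries entered 1 edgeR 4.0.16 fit (R 4.3.3): TMM scaling, filterByExpr (minimum count 10, minimum total 15), robust quasi-likelihood F-tests and Benjamini-Hochberg adjustment over 16976 genes, with calls at an adjusted p under 0.05. The standard error is the absolute log2 fold change divided by the square root of F. The script was tested on simulated counts. Replicate libraries differed by more than counting noise, so none was the same library deposited again; this does not show that they came from separate RNA. Depth was 37527236 to 49363002 counts a library.

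The 47 genes, their roles and the other lists were chosen with earlier results of these data known. Values in every library are given for the 8 called genes with the largest change in each comparison with siNC, for TFEB, TFE3 and MITF, for genes called in opposite directions, and for SQSTM1, LAMP1, NPC1 and ULK1, added after their values were seen. From each other list at most 4 called genes with the smallest p are named. Coordinates and lengths come from GENCODE 44 (GRCh38), joined by symbol, and promoters from RefSeq (GRCh38.p14). The alternatives were DESeq2 1.42.0 size factors, the DESeq2 Wald test, other count filters, only the 6 libraries compared, the library number as a block, counts thinned to the smallest total, a log2 threshold of 0.5, and leaving out each library.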

Additional observations from a re-analysis of the deposited data

How the results depend on the processing

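The counts of the 47 genes called kept within 1.5 times under every alternative other than the stricter fold threshold, and the 37 sign changes were all of uncalled values smaller than their standard error. When the log2 fold change also had to be 0.5 or more in size, siERRα against siNC had 0 higher and 1 lower, imatinib against siNC had 18 higher and 1 lower, and siERRα against imatinib had 7 higher and 19 lower. Leaving out 1 library in turn gave 8 to 12 higher and 5 to 7 lower for siERRα against siNC, 21 to 22 higher and 8 to 10 lower for imatinib against siNC, and 15 to 17 higher and 24 to 26 lower for siERRα against imatinib. The median for siERRα against siNC was -0.0516 to -0.0161 without 1 library (-0.0161 without the first siNC library, -0.0516 without the third) and -0.0498 in thinned counts, so its distance from the median of all genes is not settled.

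Deviations of libraries in different groups had correlations of -0.0996 to 0.147 for the same number and -0.133 to 0.0926 for different numbers. The ranges overlapped, and with so few libraries in each group they cannot decide whether the numbers pair the libraries. With the library number as a replicate block, 11 genes were higher and 6 lower for siERRα against siNC, 21 and 10 for imatinib against siNC, and 16 and 25 for siERRα against imatinib.

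Signs changed as follows. For imatinib against siNC, CTSK was -0.00036 with DESeq2 size factors, -0.0016 with DESeq2 and -0.0028 with no filter, and UVRAG -0.0046, -0.0058 and -0.0061 there, -0.0024 with only the 6 libraries and -0.00076 with the block. With 1 library left out, CTSK gave -0.13 to 0.087, UVRAG -0.027 to 0.018, ATP6V1A -0.054 to 0.0086 and BECN1 -0.041 to 0.019. For siERRα against siNC, TPP1 was -0.011 with at least 10 counts in every library, -0.0099 with only the 6 libraries and -1.2e-05 with the block, and ATG7 was 0.00068 in thinned counts. With 1 library left out, TPP1 gave -0.042 to 0.033, ATG7 -0.052 to 0.027, CTSZ -0.43 to 0.023, GABARAPL1 -0.011 to 0.0901, NAGLU -0.077 to 0.047 and NPC2 -0.028 to 0.035. For siERRα against imatinib, CTSZ was -0.22 in thinned counts and -0.041 to 0.39 with 1 library left out. CTSK and CTSZ, under 1 CPM, are limited by depth.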
